A study of Mus musculus with 6 samples.

Results

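Claudins are the membrane proteins that set what may pass between neighbouring epithelial cells. They were read here through the mRNA of 9 genes, Cldn1, Cldn2, Cldn3, Cldn4, Cldn7, Cldn8, Cldn10, Cldn12 and Cldn15. The genes were chosen by symbol as claudins expressed along the nephron, and their rows were found through the Ensembl identifiers of GENCODE M21. They are not all such claudins. Cldn16 and Cldn19 of the thick ascending limb were outside the 9 and are described further below. All 9 were present among the 54532 genes of the deposited table, and all 9 had enough reads to be tested.

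Claudins join across the gap between cells at the tight junction and either seal it or leave a pore that is selective for charge and size. The proximal tubule is leaky and reabsorbs sodium and water between its cells, the thick ascending limb lets sodium, calcium and magnesium through, and the collecting duct is tight. Each segment carries its own mixture of claudins, and the mixture is commonly used to describe how permeable the segment is.

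Whole kidneys of male C57BL/6 mice were sequenced as mRNA. Control mice carried KsprtTA, a doxycycline-dependent activator under the kidney-specific cadherin promoter, which is active in the tubular epithelium. KSPAPN mice carried KsprtTA together with TRE-Adiponectin, so that doxycycline switched on adiponectin in the tubules. Both groups ate chow with doxycycline at 600 mg/kg for 4 days, and each group had 3 libraries, each of RNA pooled from 3 mice, so that 9 mice stood behind a group and replicate error here means the difference between pools. The activator and the doxycycline were shared by the groups, and no source used here gives the age of these mice. The labels call the Control genotype WT, and their extraction text speaks of liver while the tissue is labelled kidney. Kidney markers were high in every library. The mRNA of Umod, the most abundant urinary protein, was between 542 and 795 FPKM (fragments scaled by transcript length and library size, as the authors deposited them), while that of Alb, the albumin of hepatocytes, was between 0.28 and 4.46 FPKM. Adipoq, the induced gene, was listed at 0.08, 0 and 0.08 FPKM in Control and at 766, 693 and 937 FPKM in KSPAPN. Reads counted on genes ranged from 17183358 to 20871173 per library. KSPAPN replicate 1 stood apart for several tubular markers. Its 10 proximal tubule markers averaged 6.88 on the log2 (FPKM + 0.1) scale, where the other 5 libraries lay between 7.30 and 7.54. Values without it are given beside several of the results that it moved.

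Promoters are shown first for Cldn2, Cldn10 and Cldn1, because Cldn2 was the most abundant of the 9 and the latter pair were the only members whose groups did not overlap. The sequences are RefSeq's, on GRCm38.p6, from 250 bases before a transcription start site to 50 bases after it, read 5′ to 3′ on the strand of the gene. The table held such windows for 8 of the 9 genes, 12 windows in all, and none for Cldn8. Capitals mark matches on either strand to 4 motifs: TATAAA (the TATA box), GGGCGG (the GC box), CAGGTG (the E-box that Snail repressors bind) and GTTAAT (part of the palindrome bound by HNF1, a tubular transcription factor).
Cldn2, chrX:139800558-139800857, plus strand: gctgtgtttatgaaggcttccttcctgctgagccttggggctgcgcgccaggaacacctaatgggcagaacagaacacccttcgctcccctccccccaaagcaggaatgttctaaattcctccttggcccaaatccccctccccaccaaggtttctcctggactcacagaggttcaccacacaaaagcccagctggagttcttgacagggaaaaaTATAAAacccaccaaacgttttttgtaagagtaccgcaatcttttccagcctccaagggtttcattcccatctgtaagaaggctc
Cldn10, upstream start site, chr14:118787621-118787920, plus strand: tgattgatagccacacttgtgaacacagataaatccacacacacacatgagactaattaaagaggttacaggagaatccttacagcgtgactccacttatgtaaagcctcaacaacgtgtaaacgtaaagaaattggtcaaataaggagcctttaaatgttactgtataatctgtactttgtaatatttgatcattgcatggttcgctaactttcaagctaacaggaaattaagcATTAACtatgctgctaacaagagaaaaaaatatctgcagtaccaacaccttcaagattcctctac
Cldn10, downstream start site, chr14:118854700-118854999, plus strand: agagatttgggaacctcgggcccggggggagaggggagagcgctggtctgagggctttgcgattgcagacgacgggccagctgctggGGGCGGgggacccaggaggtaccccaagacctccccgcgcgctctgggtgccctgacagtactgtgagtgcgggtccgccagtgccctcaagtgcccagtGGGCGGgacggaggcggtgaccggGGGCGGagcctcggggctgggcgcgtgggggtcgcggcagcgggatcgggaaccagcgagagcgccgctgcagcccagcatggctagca
Cldn1, chr16:26371790-26372089, minus strand: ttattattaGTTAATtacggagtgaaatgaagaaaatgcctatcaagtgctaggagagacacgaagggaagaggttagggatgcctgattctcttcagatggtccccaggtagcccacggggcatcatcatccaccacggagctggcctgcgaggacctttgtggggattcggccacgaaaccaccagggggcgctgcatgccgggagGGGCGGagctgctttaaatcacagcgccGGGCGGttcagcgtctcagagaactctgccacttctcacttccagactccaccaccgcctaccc

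The Cldn10 windows were unlike each other. The upstream one had a GC content of 36.0%, against a median of 52.7% over all 32851 promoter windows, and a single motif match, GTTAAT on the opposite strand from 15 bases before the start site. The downstream one had a GC content of 72.0% and carried GGGCGG from 163, 63 and 39 bases before the start site. The Cldn2 window held a TATAAA from 35 bases before its start site. The Cldn1 window held GGGCGG from 42 and 14 bases and GTTAAT from 241 bases before its start site. No match overlapped another in these windows. Over all promoter windows, TATAAA was found in 13.6%, GGGCGG in 35.7%, CAGGTG in 20.2% and GTTAAT in 7.10%, so each match is a description of the letters and not of a bound site.

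The genes were first placed by level. Cldn2 was the highest in Control, with 154 ± 12.2 FPKM (SD, n = 3), and was followed by Cldn10 with 69.2 ± 8.59, Cldn8 with 30.4, Cldn12 with 17.3, Cldn4 with 11.7, Cldn3 with 9.999, Cldn7 with 9.57, Cldn15 with 6.16 and Cldn1 with 2.67 ± 0.572 FPKM. The ranges of neighbours overlapped in Control between Cldn4 and Cldn3 and between Cldn3 and Cldn7, so that these neighbours were not separated by level. In KSPAPN the order was the same down to Cldn4, and then Cldn7, Cldn3 and Cldn15 followed with overlapping ranges at each step. The 9 genes summed to 311 ± 15.7 FPKM in Control and 280.5 ± 29.4 FPKM in KSPAPN (SD, n = 3 each), and the groups overlapped.

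**Figure D1:**
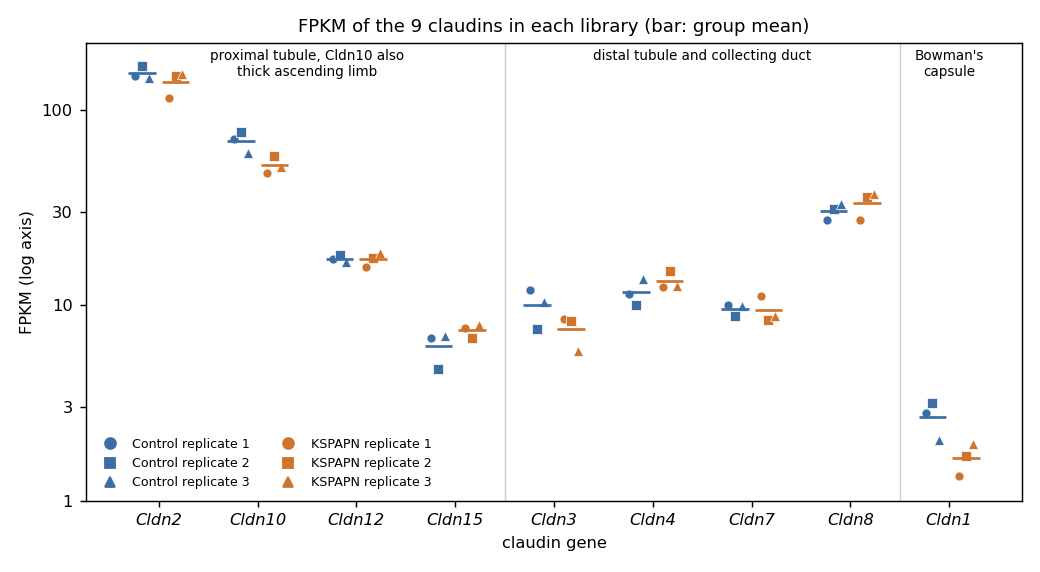
FPKM of the 9 claudins on a log axis in each of the 6 libraries, with the mean of each group as a bar. The genes are ordered by the segment assigned to them here. Cldn10 (47.7 to 57.8 FPKM in KSPAPN, 59.9 to 76.8 in Control) and Cldn1 (1.34 to 1.95 against 2.05 to 3.17) are the genes whose orange and blue points do not overlap.

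The comparison of KSPAPN with Control asks whether 4 days of adiponectin in the tubules went with a different claudin mRNA level in any segment. By edgeR's quasi-likelihood test, none of the 9 had an adjusted p under 0.05, where 2.65% of all 16017 genes tested did. Cldn10 and Cldn1, both lower, had an unadjusted p under 0.05, that is 2 of 9 where 18.7% of all genes did. The same pair had groups that did not overlap in normalized counts, 2 of 9 where 24.5% of all genes did. Across the 9, the log2 fold changes ran from -0.68 to 0.29, 6 were negative and 3 positive, and their median was -0.0096, where the median of all genes tested was 0.012. In whole kidney, fewer cells of a type and less RNA per cell cannot be told apart.

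DESeq2 and edgeR gave different calls for this pair. DESeq2 called both lower, Cldn10 with an adjusted p of 0.0291 and Cldn1 with an adjusted p of 0.0432, while it called 6.33% of its genes. Without the filter on low counts, edgeR also called both, with adjusted p-values of 0.00609 for Cldn10 and 0.0106 for Cldn1, and 4.55% of genes overall. With a trend against GC content and transcript length removed, edgeR called Cldn1 alone, at a log2 fold change of -0.82 and an adjusted p of 0.0462, and 2.5% of genes overall.

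Among the claudins of the proximal tubule, Cldn2 forms the pore through which sodium and water cross the leaky epithelium. It lies on chromosome X from 139800828 to 139811386 (GRCm38, plus strand). Its level was 149, 167 and 145 FPKM in Control replicates 1 to 3 and 115, 148 and 152 FPKM in KSPAPN replicates 1 to 3. KSPAPN replicate 1 was below all other libraries, and the remaining KSPAPN libraries lay within the Control range. The log2 fold change was -0.14 ± 0.12 (SE), with a 95% interval from -0.41 to 0.12 and an adjusted p of 0.557, and it was -0.02 without KSPAPN replicate 1.

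Cldn10 is known to be made in an anion-selective form in the proximal tubule and a cation-selective form in the thick ascending limb, which differ in their first exon. The gene lies on chromosome 14 from 118787908 to 118875489 (plus strand), and its 3 annotated transcripts start up to 66824 bases apart. Counts per gene do not separate the forms. Cldn10 was at 70.9, 76.8 and 59.9 FPKM in Control and at 47.7, 57.8 and 50.7 FPKM in KSPAPN, with every KSPAPN library below every Control library. The group means were 69.2 ± 8.59 and 52.1 ± 5.23 FPKM (SD, n = 3 each). The log2 fold change was -0.41 ± 0.11 (SE), or 0.755 times the Control level, with a 95% interval from -0.65 to -0.16. edgeR's p was 0.00437 before and 0.0881 after adjustment. Leaving out each library in turn gave -0.50 to -0.32 with adjusted p-values from 0.0809 to 0.289, and removing the GC and length trend gave -0.31.

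Cldn12, which is linked to calcium passage between cells, was at 17.3, 18.0 and 16.6 FPKM in Control and at 15.6, 17.4 and 18.4 FPKM in KSPAPN. The Control range lay inside that of KSPAPN. Its log2 fold change was -0.0082, with the narrowest interval of the 9, from -0.21 to 0.19. Cldn15, a cation pore best known in the intestine, was assigned here to the proximal tubule, and whole kidney cannot show which cells made it. Its level was 6.81, 4.72 and 6.94 FPKM in Control and 7.68, 6.80 and 7.93 FPKM in KSPAPN. The lowest KSPAPN value lay just under the highest Control values, and the log2 fold change was 0.29 ± 0.17 (SE, adjusted p = 0.403). It was 0.13 without Control replicate 2, the low library of that group.

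In the distal tubule and collecting duct, Cldn8 is the claudin that brings Cldn4 to the junction, and together they are held to form its chloride route. Cldn8 was at 27.4, 31.1 and 32.8 FPKM in Control and at 27.2, 35.9 and 36.9 FPKM in KSPAPN. Apart from KSPAPN replicate 1 the KSPAPN libraries were above Control, and the log2 fold change was 0.14 ± 0.12 (SE, adjusted p = 0.603) with all libraries and 0.28 without that one. Cldn4 was at 11.3, 10.03 and 13.7 FPKM in Control and at 12.4, 14.9 and 12.5 FPKM in KSPAPN. The groups overlapped, and the log2 fold change was 0.19 ± 0.14 (SE, adjusted p = 0.519). The ratio of Cldn4 to Cldn8 FPKM was 0.385 ± 0.0535 in Control and 0.404 ± 0.0595 in KSPAPN (SD, n = 3 each) and did not separate the groups (exact permutation test, two-sided, p = 0.6).

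Cldn7, found on the lateral membrane as well as in the junction, was at 10.1, 8.76 and 9.87 FPKM in Control and at 11.1, 8.43 and 8.79 FPKM in KSPAPN. Its log2 fold change was -0.0096, and the interval from -0.34 to 0.32 spans both directions. Without KSPAPN replicate 1 it was -0.14. Cldn3, a sealing claudin of several distal segments, was at 12.0, 7.56 and 10.4 FPKM in Control and at 8.49, 8.26 and 5.86 FPKM in KSPAPN. The spread within Control covered most of the KSPAPN values, and the log2 fold change was -0.40 ± 0.21 (SE, adjusted p = 0.340). Cldn3 has the highest GC content of the 9 transcripts, 62.8%, and with the GC and length trend removed its log2 fold change was -0.08. Cldn3 alone of the 9 shares exonic bases with another gene, Wbscr25 on the opposite strand, which had 2 reads in all.

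Cldn1, a sealing claudin that in the kidney marks the parietal cells of Bowman's capsule, was the lowest of the 9. It lies on chromosome 16 from 26356642 to 26371841 (minus strand). It was at 2.80, 3.17 and 2.05 FPKM in Control and at 1.34, 1.70 and 1.95 FPKM in KSPAPN, on 251, 266 and 174 reads against 151, 150 and 196 reads. Every KSPAPN library was below every Control library after scaling for depth, and the gap between the nearest pair, KSPAPN replicate 3 and Control replicate 3, was small. The log2 fold change was -0.68 ± 0.20 (SE), or 0.624 times the Control level, with a 95% interval from -1.13 to -0.23. edgeR's p was 0.00707 before and 0.109 after adjustment, and leaving out each library in turn gave -0.84 to -0.53.

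**Figure D2:**
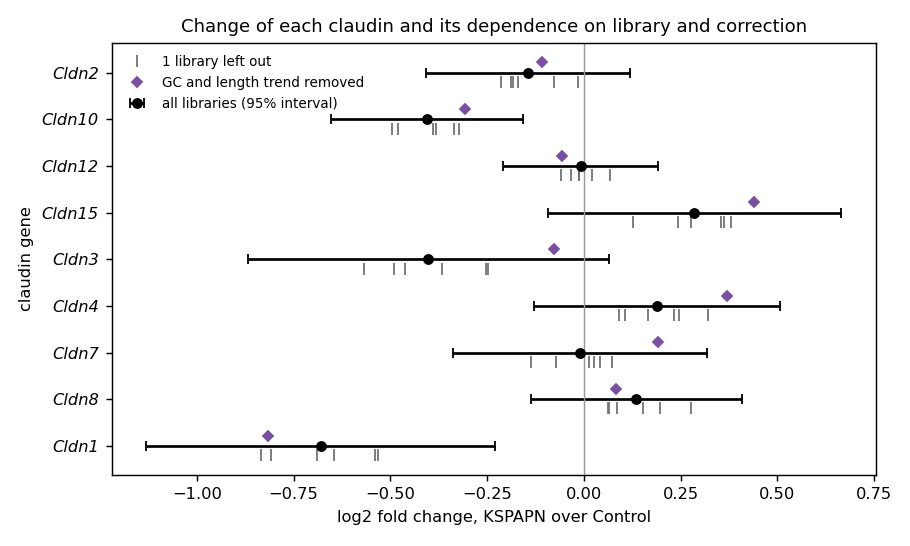
Log2 fold change of each claudin, KSPAPN over Control, with its 95% interval (black), the values with each of the 6 libraries left out (grey ticks) and the value with the GC and length trend removed (purple). The intervals of Cldn10 and Cldn1 lie below 0, and the purple point of Cldn3 (-0.08) is far from its uncorrected value (-0.40). Those of Cldn4 (0.37), Cldn15 (0.44), Cldn7 (0.19), Cldn10 (-0.31) and Cldn2 (-0.11) also lie to the right of the uncorrected values. Those of Cldn1 (-0.82), Cldn8 (0.083) and Cldn12 (-0.058) lie to the left.

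The levels were next set against markers of the segments to which the claudins were assigned here. The value is the difference between the log2 (FPKM + 0.1) of the claudin and the mean of the marker list. With 3 libraries against 3, the exact permutation test cannot give a p under 0.1. The 10 proximal tubule markers averaged 7.47 in Control and 7.16 in KSPAPN, a difference of -0.31 with the groups not overlapping (two-sided exact permutation test, p = 0.1). The difference was -0.17 without KSPAPN replicate 1, -0.17 with overlapping groups without Slc7a13, and -0.06 without both. Of these 10 genes, 8 had negative log2 fold changes and edgeR called 2 lower, where 2.65% of all genes were called. These were Slc22a6, an organic anion transporter, at -0.46, and Slc7a13, an amino acid transporter of the last proximal segment, at -1.46 (adjusted p = 0.0388 and 0.0259). The markers Lrp2, the endocytic receptor megalin, and Slc34a1, the phosphate transporter, were at -0.32 and -0.15 with adjusted p-values of 0.27 and 0.582. The separation of list means was not particular to the proximal tubule. The means of the thin limb and principal cell markers also separated the groups, by 0.30 and -0.073 (exact p = 0.1 each). For principal cells, Control replicate 2 at 4.222 and KSPAPN replicate 1 at 4.221 were almost tied. The means of every other list overlapped.

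Relative to the proximal list, Cldn10 differed by -0.099 with overlapping groups (exact p = 0.5), and this value ran from -0.18 without KSPAPN replicate 1 to -0.013 without KSPAPN replicate 3. Cldn2 differed by 0.15, Cldn12 by 0.29 and Cldn15 by 0.60, each with all KSPAPN libraries above all Control libraries (exact p = 0.1 each). A difference from the list depends on the list as well, whose own mean differed by -0.31. The log2 fold changes of the genes themselves were -0.14 for Cldn2, -0.0082 for Cldn12 and 0.29 for Cldn15, each with overlapping groups. Without Control replicate 1 Cldn2 differed from the list by 0.092, and without KSPAPN replicate 1 Cldn12 differed by 0.22 and Cldn15 by 0.44. These values moved when Slc7a13 was left out of the list. Without this single marker Cldn10 differed by -0.23 (exact p = 0.2), Cldn2 by 0.015 (exact p = 0.8), Cldn12 by 0.16 (exact p = 0.1) and Cldn15 by 0.46 (exact p = 0.2), and only Cldn12 was still free of overlap. Cldn2 thus moved from separated to overlapping groups on the choice of 1 marker in 10.

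Relative to the 7 markers of the thick ascending limb, whose mean was 5.90 in Control and 5.92 in KSPAPN, Cldn10 differed by -0.42 with overlapping groups (exact p = 0.2), and by -0.29 without KSPAPN replicate 1. Within this list 3 log2 fold changes were positive and 4 negative, and edgeR called 1 of the 7, where 2.65% of all genes were called. This was Slc12a1, the sodium-potassium-chloride cotransporter, higher at 0.52 (adjusted p = 0.0437). Umod was at -0.04 and not called (adjusted p = 0.903). Cldn3 differed from the thick ascending limb list by -0.41 (exact p = 0.2), and by -0.27 without KSPAPN replicate 3. Of the 3 thin limb markers, edgeR called 1, where 2.65% of all genes were called. This was Fst, the activin-binding protein follistatin, higher at 0.82 (adjusted p = 0.0311), and Slc14a2, a urea transporter, was at 0.0094.

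None of the 7 principal cell markers tested was called by edgeR or DESeq2, and the median of their log2 fold changes was -0.30. At an unadjusted p under 0.05, 3 of the 7 were lower, where 18.7% of all genes had such a p. Aqp2, the vasopressin-regulated water channel, was at 537 FPKM in KSPAPN replicate 1 and between 227 and 356 FPKM in the other 5 libraries. Aqp3, the basolateral water channel, was at -0.32 (adjusted p = 0.196). Against the principal cell list, which for this purpose held 8 markers, 1 of them with too few reads to be tested, Cldn8 differed by 0.20, Cldn4 by 0.26, Cldn7 by 0.046 and Cldn3 by -0.32, all with overlapping groups (exact p = 0.3, 0.2, 0.9 and 0.3). With log2 normalized counts and the 7 tested markers these values were 0.29, 0.36, 0.15 and -0.23. Without KSPAPN replicate 1 Cldn8 differed by 0.36 and Cldn7 by -0.05. Over all single libraries left out, Cldn8 ran from 0.085 to 0.36, Cldn4 from 0.17 to 0.38, Cldn7 from -0.05 to 0.13 and Cldn3 from -0.50 to -0.19. Against the 4 distal convoluted tubule markers Cldn8 differed by 0.47 (exact p = 0.2), and by 0.22 without KSPAPN replicate 1. In that library Pvalb, a calcium-binding protein of this segment, was at 2.10 FPKM, and in the other 5 it was between 12.2 and 25.4 FPKM. Slc12a3, the thiazide-sensitive cotransporter that defines the segment, was at -0.36, with every KSPAPN library below every Control library. Its edgeR p was 0.028 before and 0.207 after adjustment. Of the 4 markers it alone had an unadjusted p under 0.05, where 18.7% of all genes did. It alone had groups that did not overlap in normalized counts, where 24.5% of all genes did. The 7 intercalated cell markers held no edgeR call, and 3 had positive and 4 negative log2 fold changes. At an unadjusted p under 0.05, 2 of the 7 were lower, where 18.7% of all genes had such a p. These were Slc4a1 at -0.71 and Aqp6 at -0.57. DESeq2 called both lower (adjusted p = 0.00993 and 0.0403), where it called 6.33% of its genes. The proton pump subunits Atp6v1g3 and Atp6v0d2 were at 0.14 and 0.16.

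Cldn1 and the glomerular markers lay in opposite directions. All 6 glomerular markers had positive log2 fold changes, with a median of 0.32 and no call by edgeR or DESeq2. Of the 6, 1 had an unadjusted p under 0.05, where 18.7% of all genes did. The podocyte gene Nphs1 (nephrin) was at 0.07 (adjusted p = 0.919). Relative to this list Cldn1 differed by -0.95, with KSPAPN libraries below Control (exact p = 0.1). The nearest libraries were almost tied, Control replicate 3 at -1.448 and KSPAPN replicate 2 at -1.452, and the difference was -0.58 without Control replicate 2. The list holds podocyte genes and was not chosen for parietal cells. Cldn1 is also made in urothelium. The median of the 6 urothelial markers was -0.31 on the log2 scale with no edgeR call, 1 unadjusted p under 0.05 and no DESeq2 call, with Upk1a and Upk1b, plaque proteins of that lining, at -0.26 and -0.02. Their summed level was 22.1 to 24.9 FPKM in Control and 16.0 to 25.9 FPKM in KSPAPN, and their part in the value of Cldn1 was not tested.

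The other lists of cell type markers held no edgeR call, and 1 gene in them, a hepatocyte marker, had an unadjusted p under 0.05 and was called by DESeq2. Of all genes, 18.7% had such a p, and DESeq2 called 6.33% of its genes. The median log2 fold change of the endothelial list was 0.035, with Pecam1 and Cdh5, junction proteins of vessels, at 0.11 and 0.13. The injury markers Havcr1 and Lcn2 were at 0.57 and 0.14, and Havcr1, which marks the injured proximal tubule, was at 1.84 FPKM in KSPAPN replicate 1 and at 0.42 to 0.84 FPKM in the other libraries. Of the hepatocyte list Alb and Fga, a fibrinogen chain, were at 0.55 and -0.37. The summed level of the 5 adipocyte markers was at most 1.63 FPKM in any library, with Plin1, which coats fat droplets, at most 0.118 FPKM and Cidec at most 0.442 FPKM.

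**Figure D3:**
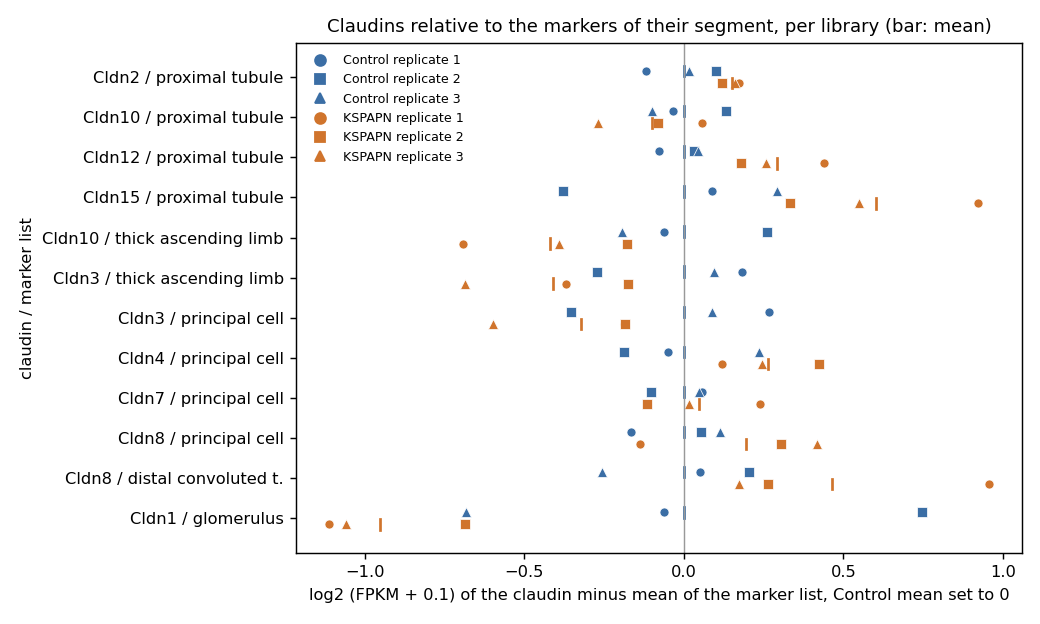
Each claudin's log2 (FPKM + 0.1) minus the mean of a segment's markers, shown per library with the Control mean set to 0 and group means as bars. KSPAPN points lie to the right of all Control points for Cldn2, Cldn12 and Cldn15 against the proximal list, and to the left for Cldn1 against the glomerular list, while the other 8 pairs overlap.

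The mixture of these 9 claudins was then compared within each library. Cldn2 made up 49.4 ± 1.48% of the summed FPKM of the 9 in Control and 49.3 ± 2.47% in KSPAPN (SD, n = 3 each; exact p = 1.0). The share of Cldn10 was 23.1, 23.4 and 20.2% in Control and 19.3, 19.3 and 17.2% in KSPAPN, lower in each KSPAPN library than in any Control library (two-sided exact p = 0.1). The share of Cldn12 was 5.58 ± 0.0637% and 6.13 ± 0.271% (SD, n = 3 each), with all KSPAPN values higher (exact p = 0.1). A share depends on the levels of the other members as well. The level of Cldn12 itself was 17.3 FPKM in Control and 17.2 FPKM in KSPAPN, a log2 fold change of -0.0082. The share of Cldn1 was 0.855 ± 0.147% and 0.59 ± 0.0626%, with all KSPAPN values lower (exact p = 0.1). The shares of the other members overlapped between the groups. The ratio of Cldn2 to Cldn10 was 2.10, 2.18 and 2.415 in Control and 2.416, 2.56 and 3.01 in KSPAPN (exact p = 0.1). The nearest libraries, Control replicate 3 and KSPAPN replicate 1, were all but equal.

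**Figure D4:**
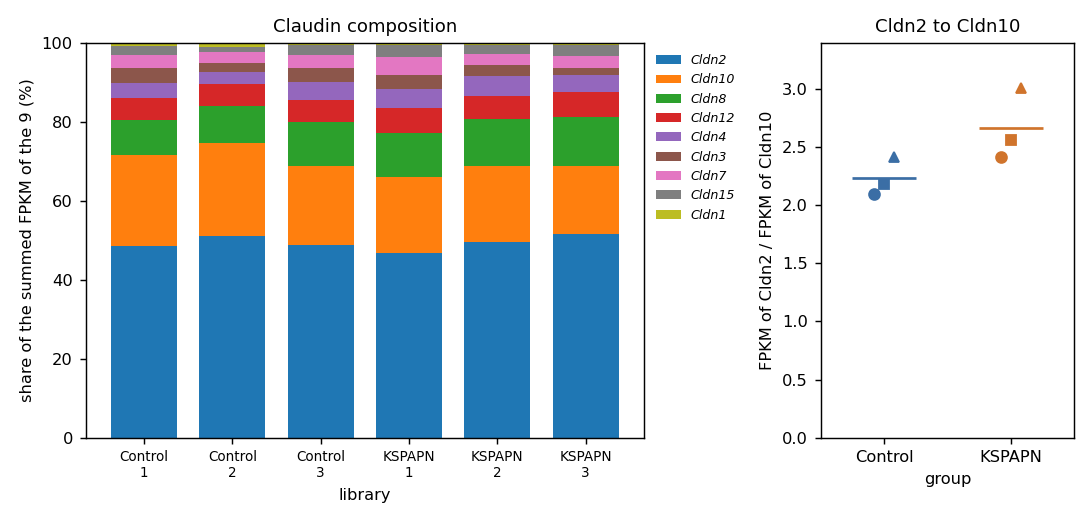
Share of each claudin in the summed FPKM of the 9 for each library (left, stacked to 100%) and the ratio of Cldn2 to Cldn10 FPKM per library with group means as bars (right). The Cldn10 band is 20.2 to 23.4% of the column in Control and 17.2 to 19.3% in KSPAPN, and the highest Control ratio (2.415) touches the lowest KSPAPN ratio (2.416).

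A further 24 claudin genes of the table were described as a check on the choice of the 9. Of these, 7 had enough reads to be tested and none was called by edgeR or DESeq2 (smallest adjusted p = 0.373, smallest unadjusted p = 0.106), and 9 had no read in any library. Cldn16 and Cldn19, partners in the magnesium and calcium route of the thick ascending limb, were at 6.99, 5.997 and 6.45 against 7.94, 5.41 and 8.43 FPKM, and at 11.5, 8.06 and 9.05 against 10.5, 8.97 and 8.20 FPKM. Neither separated the groups, with log2 fold changes of 0.17 and -0.04. Cldn14, which is known to close that route, had 16 reads in the 6 libraries together, 10 of them in KSPAPN replicate 1, and was not tested. Cldn5, the claudin of vessels and podocytes, was at -0.09 ± 0.19 (SE, adjusted p = 0.839).

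Of 27 genes for proteins that hold or regulate claudins, 1 was called by edgeR, where 2.65% of all genes were. Their median log2 fold change was 0.034, with 18 positive and 9 negative, beside a median of 0.012 for all genes tested. Magi3, a scaffold of the junction, was called higher. It was at 2.76, 3.28 and 2.88 FPKM in Control and at 4.81, 4.39 and 3.93 FPKM in KSPAPN, a log2 fold change of 0.56 ± 0.12 (SE, adjusted p = 0.0386) with no overlap. Its value was 0.50 to 0.64 with single libraries left out. The call was lost (adjusted p up to 0.182) without any of Control replicates 1 to 3 or KSPAPN replicates 2 and 3, and with limma on log2 FPKM, and it was kept without KSPAPN replicate 1.

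Among the scaffolds, Tjp1, the adaptor protein ZO-1, was at 6.64, 6.25 and 6.84 FPKM in Control and at 7.72, 8.14 and 8.18 FPKM in KSPAPN. All KSPAPN libraries were above Control, with a log2 fold change of 0.29 ± 0.085 (SE), but the adjusted p was 0.102. Among the transmembrane partners none was called by edgeR or DESeq2, 2 were higher at an unadjusted p under 0.05, and Ocln (occludin) was at 0.07 ± 0.11 (SE, adjusted p = 0.764). Among the regulators Epcam, which binds Cldn7 and protects it from degradation, was at 50.5, 47.7 and 54.5 FPKM in Control and at 75.1, 61.2 and 63.1 FPKM in KSPAPN. The groups did not overlap, the log2 fold change was 0.39 ± 0.11 (SE), and the adjusted p was 0.0869 in edgeR and 0.0279 in DESeq2. Epcam was also called by edgeR with the GC and length trend removed (0.53, adjusted p = 0.0211) and without the filter on low counts. Cldn7 itself, as given above, was at -0.0096. At an unadjusted p under 0.05, 6 of the 27 were higher and 1, the protease Prss8 at -0.27, was lower, that is 7 of 27 where 18.7% of all genes had such a p. Of the 27, 9 had groups that did not overlap, 7 higher and 2 lower, where 24.5% of all genes did.

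**Figure D5:**
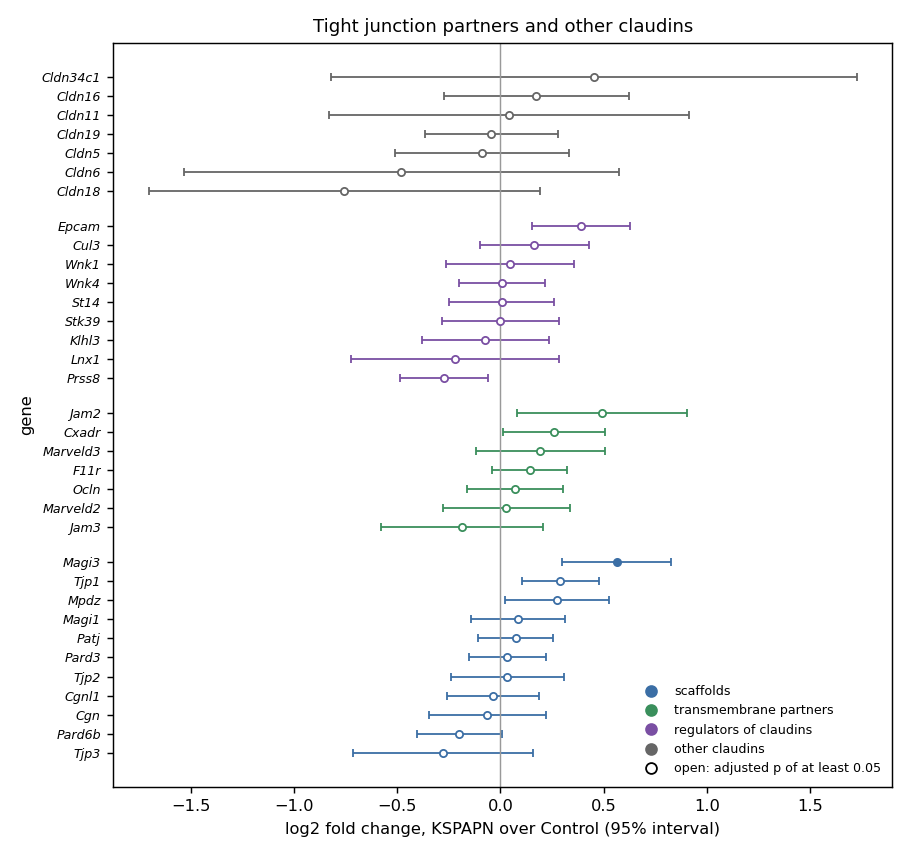
Log2 fold change, KSPAPN over Control, with 95% intervals for the 27 partners and regulators of claudins by role and for the 7 other claudins tested. Magi3 (0.56) is the only filled point, which marks an adjusted p under 0.05, and the intervals of the little expressed Cldn34c1, Cldn18, Cldn6 and Cldn11 are the widest.

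Finally, the genes whose pattern over the 6 libraries was most like that of the 3 most abundant members were listed among 6840 protein-coding genes with a mean of at least 5 FPKM, by Pearson's r of log2 normalized counts. For Cldn2 these were Rnf152, Slc25a5 and Gk, with r from 0.994 to 0.997. For Cldn10 they were Dmgdh, Msra and Chst11, with r from 0.996 to 0.997, and for Cldn8 0610030E20Rik, Paxbp1 and Dnajc13, with r from 0.988 to 0.994. Dmgdh, a mitochondrial enzyme of choline breakdown, was at -0.49 (adjusted p = 0.0622), Msra, which repairs oxidized methionine, at -0.29, and Chst11, a chondroitin sulfotransferase, at -0.39 (adjusted p = 0.145 and 0.0872). The points share libraries and depth, and the list is a description.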

How the data were processed

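RNA of whole kidneys was sequenced in 6 libraries, with groups taken from the labels. The authors deposited raw read counts per gene, without normalization, and FPKM scaled by gene length and by a library total that no source used here states. Libraries were made from mRNA selected with oligo(dT). The submitters' processing notes name STAR 2.5, TopHat, HTSeq 0.6.1, DESeq2 and edgeR, without roles. No source used here states the genome build or strandedness, so coordinates are those of GENCODE M21 by identifier.

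The members and lists were chosen with earlier results of these data known. Counts were tested with edgeR 4.0.16 in R 4.3.3, with TMM factors, filterByExpr (minimum count 10, minimum total 15), the two-sided quasi-likelihood test of KSPAPN against Control, and Benjamini-Hochberg adjustment over 16017 genes. A gene is called at an adjusted p under 0.05. The SE is the log2 fold change divided by the square root of F. Levels and ratios used the deposited FPKM and exact permutation tests, two-sided, over 20 arrangements of libraries. Intervals cover the spread between these pools. Total counts per library were 17183358 to 20871173, and the common dispersion was 0.0225.

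Alternatives were DESeq2 1.42.0, RLE factors, total counts only, no filter, limma 3.58.1 on log2 FPKM with pseudocounts of 1 and 0.1, factors set without mitochondrially encoded genes and Adipoq, a replicate block, and each library left out. The removal of a GC and length trend (natural splines with 5 degrees of freedom) and the proximal list without Slc7a13 were chosen after seeing the data. The edgeR fits with TMM, RLE, the block and the GC correction, DESeq2 and limma were tested on simulated data. Named were the 9 members, partners and claudins that were called, with Tjp1, Ocln, Cldn5, Cldn14, Cldn16 and Cldn19, the first 2 markers of each list and those called, the genes most like Cldn2, Cldn8 and Cldn10, and Adipoq. Wbscr25, Prss8, Epcam, Slc12a3, Pvalb and the others outside this rule were named after their values were seen. Some markers that the rule names are not reported here. Protein sequences were not used here.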

Additional observations from a re-analysis of the deposited data

How the results depend on the processing

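The direction of 7 of the 9 claudins was the same under every alternative. Cldn7 and Cldn12, both near 0, changed sign. With total counts only, Cldn7 was at 0.063 and Cldn12 at 0.060. Cldn7 was at 0.19 with the GC and length trend removed, with or without the replicate block. With single libraries left out, Cldn7 ranged from -0.14 to 0.072 and Cldn12 from -0.058 to 0.066. Calls among the 9, 0 as reported, were 2 with DESeq2 (Cldn1 at -0.68 and Cldn10 at -0.41), 2 without the filter (-0.68 and -0.41) and 1 with the GC and length trend removed (Cldn1 at -0.82). Calls among the 27 partners, 1 as reported, were 2 with DESeq2, 2 without the filter, 2 with the GC and length trend removed, 0 with limma at either pseudocount and 0 to 1 with single libraries left out. Relative to the proximal list without Slc7a13, Cldn2 was at 0.015 and Cldn12 at 0.16. The causes were not tested. No call among the other claudins changed under any alternative.

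Equal replicate numbers did not pair the libraries by the labels, and the deviations of equal numbers correlated at 0.054, 0.15 and 0.17, each library correlating best with its own number. With the replicate block, 5.8% of genes were called, against 2.65% without it. It called 1 of the 9, Cldn10 at -0.40 (adjusted p = 0.0342 by edgeR), and 2 of the partners. The block together with the GC and length correction called 0 of the 9 and 2 of the partners.

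Pools of 3 mice and 3 libraries per group limit what can be seen. Intervals of single claudins were at least as wide as that of Cldn12, from -0.21 to 0.19. Those of Cldn10 and Cldn1 lay below 0. For the other members, a difference inside the interval could not be told from none. Counts per gene hide the forms of Cldn10, and mRNA says nothing of the amount of protein in the junction.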
